A study of Mus musculus with 17 samples.

Results

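The immunity-related GTPases (IRGs, also called p47 GTPases) were followed through a whole-kidney RNA sequencing series of 17 mice. Genes are not replicates of a condition, so every comparison was made over mice, with 1 library per mouse. The family was taken by gene symbol and held 10 of the 22558 genes that could be used from the deposited table, namely Irgm1, Irgm2, Igtp, Iigp1, Ifi47, Tgtp1, Tgtp2, Gm4841, F830016B08Rik and BC023105. The genes were chosen by family membership and selected on their measured expression in the same mice, already known to be high in some untreated diabetic kidneys and low in treated ones. The comparisons below are therefore descriptions of the family and give no independent support to its choice.

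The mice fell into 3 groups. The 5 Ctrl mice were male C57BL/6. The 6 Case mice were male db/db animals on the BKS.Cg-Dock7m +/+ Leprdb/J background, which lack a working leptin receptor and become obese and diabetic, and the 6 Dapa mice were db/db males given dapagliflozin, which blocks SGLT2 and so glucose uptake in the proximal tubule, by gavage for 6 weeks from 8 weeks of age (1.0 mg/kg daily). Ctrl and Case mice received saline in the same way. Because the Ctrl mice were not BKS animals, genotype, diabetes and strain cannot be told apart in Case against Ctrl or in Dapa against Ctrl, while Dapa and Case mice share strain and genotype. Total counts per library ran from 13039535 to 17779635, with 17.9% to 27.6% on mitochondrial genes, and the summed level of 11 kidney markers was 2230 to 3926 FPKM (a level scaled to gene length and library total) across the libraries. In 7 libraries (Ctrl 1, 3 and 4, Case 1, and Dapa 10, 11 and 12) the deposited FPKM of 3 genes outside the family did not match their counts.

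IRG proteins are GTPases that cells make in response to interferon-gamma, in part through the transcription factor IRF1, and they defend mouse cells against microbes that live inside vacuoles, such as Toxoplasma and Chlamydia. The family works as a pair of classes. The regulators Irgm1, Irgm2 and Igtp (also called Irgm3) sit on the cell's own membranes and keep the effectors inactive there, while the effectors Iigp1 (Irga6), Ifi47 (Irgd) and Tgtp1 and Tgtp2 (Irgb6) load onto the vacuole of the microbe and break it. The class names come from the nucleotide-binding loop of the GTPase domain, where regulators carry methionine (GMS) and effectors carry lysine (GKS).

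The codons of this loop are shown because they divide the family into its classes. They were read from the GENCODE vM21 transcripts of build GRCm38 for the chromosome 11 genes, lie in coding exons, and are written 5′ to 3′ on the coding strand. Capitals mark the methionine or lysine codon. The stretches lie at chr11:48866761-48866784 (Irgm1, minus strand), chr11:58219695-58219718 (Irgm2, plus strand), chr11:58206275-58206298 (Igtp, plus strand), chr11:49095648-49095671 (Ifi47, plus strand), chr11:48987667-48987690 (Tgtp1, minus strand) and chr11:49059534-49059557 (Tgtp2, minus strand).
Irgm1: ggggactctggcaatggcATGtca
Irgm2: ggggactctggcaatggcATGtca
Igtp: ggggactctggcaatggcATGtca
Ifi47: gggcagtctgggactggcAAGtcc
Tgtp1: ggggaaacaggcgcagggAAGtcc
Tgtp2: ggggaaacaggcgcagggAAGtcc

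The 3 regulators shared the same 24 bases, and Tgtp1 and Tgtp2 shared theirs. Of the 9 genes with a coding sequence, 3 carried the methionine codon and 6 a lysine codon, the latter including the little-studied relatives Gm4841 and F830016B08Rik, whose class is therefore GKS by sequence. BC023105 is annotated as a processed pseudogene without a coding sequence.

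The family lies in 3 clusters. Irgm1, Tgtp1, Tgtp2 and Ifi47 fall within 235 kb of chromosome 11 (chr11:48861968-48871683 for Irgm1, chr11:48985327-48994172 for Tgtp1, chr11:49057194-49064206 for Tgtp2 and chr11:49076587-49096974 for Ifi47). Igtp (chr11:58199556-58207591) and Irgm2 (chr11:58199618-58222779) overlap on the same strand within 23.2 kb. Iigp1, Gm4841, F830016B08Rik and BC023105 fall within 175 kb of chromosome 18. Coding sequences ran from 1185 bases in Irgm2 to 1269 in Igtp, and 96.9% or more of each lay in a single exon. Outside the pair Tgtp1 and Tgtp2, whose coding sequences were 99.7% identical, identity ran from 57.9% between Irgm2 and Ifi47 to 78.2% between Gm4841 and F830016B08Rik.

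These copies limit how well reads could be assigned. Of the 50-base stretches in the transcripts of Tgtp1, 81.2% also occurred in another gene (79.4% in Tgtp2), and of those of Tgtp2 86.6% did (85.8% in Tgtp1), so the values of this pair cannot be separated from each other. The share was 14.7% for BC023105 (with Gm4841), 11.8% for Igtp (with Irgm2), 9.42% for Gm4841, 7.77% for Irgm2 and at most 2.54% for the other 4 genes. Tgtp1 also overlaps its relative Gm12185 on the same strand.

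The promoters of the chromosome 11 members were read because interferon acts on such genes through short promoter motifs. RefSeq sequence (build GRCm38.p6) of the 250 bases before the annotated start was available for 6 members. RefSeq starts match the gene models above for Igtp and Ifi47 and differ for the others, and those of Irgm1, Irgm2 and Tgtp1 lie inside the loci given there. The sequence was searched for TTCNNNGAA, the palindromic core of a gamma-activated site, and, on both strands, for GAAA followed by 2 bases of any kind and GAAA again, the core of an interferon-stimulated response element (the GAAA pair). Igtp, Irgm2, Tgtp1 and Tgtp2 each held 1 of either kind, always with 2 bases between them. Irgm1 held 2 overlapping copies of the GAAA pair and no TTCNNNGAA, and Ifi47 had no match to these letters in this window. The stretches below are 50 bases long, written in the direction of transcription, with matches in capitals. They lie at chr11:48871425-48871474 (Irgm1, minus strand), chr11:58214883-58214932 (Irgm2, plus strand), chr11:58199492-58199541 (Igtp, plus strand), chr11:48992304-48992353 (Tgtp1, minus strand) and chr11:49064263-49064312 (Tgtp2, minus strand).
Irgm1: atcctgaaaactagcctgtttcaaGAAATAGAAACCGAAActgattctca
Irgm2: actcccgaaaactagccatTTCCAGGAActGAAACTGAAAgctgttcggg
Igtp: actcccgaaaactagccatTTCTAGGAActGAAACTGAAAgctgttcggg
Tgtp1: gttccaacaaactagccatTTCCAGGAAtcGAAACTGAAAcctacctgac
Tgtp2: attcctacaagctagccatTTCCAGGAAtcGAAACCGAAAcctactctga

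Irgm2 and Igtp were identical at 49 of these 50 positions, Tgtp1 and Tgtp2 at 41, and Irgm2 and Tgtp1 at 36, whereas Irgm1 was identical to the other 4 at 26 to 32. Of 32851 promoter windows of the same length, 2.98% held the GAAA pair and 7.02% held TTCNNNGAA. A TTCNNNGAA within 10 bases before a GAAA pair, an arrangement looked for after these sequences were seen, stood in 9 windows (0.0274%), of which 4 were the members named above and 1 was their relative Gm12185. The other 4 were Bst2, Cxcl14, Gm26512 and Gm32670. Such matches describe the letters and not binding.

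In control kidneys the family was expressed at low levels, and the regulator Irgm1 led. Mean levels per length were 7.06 ± 0.731 FPKM (SD, n = 5) for Irgm1, 4.21 ± 0.919 for Iigp1, 2.76 ± 0.575 for Igtp and 2.65 ± 0.971 for Irgm2, then 1.54 ± 0.542 for Tgtp2, 1.39 ± 0.634 for Tgtp1, 1.29 ± 0.604 for BC023105, 0.925 ± 0.192 for Ifi47, 0.439 ± 0.124 for F830016B08Rik and 0.0731 ± 0.0550 for Gm4841. From Iigp1 down to Ifi47 the ranges of mean ± SD of neighbours in this order overlapped, whereas those of Irgm1 at the top and F830016B08Rik and Gm4841 at the bottom did not overlap with their neighbours. Counts for Gm4841 were 0 to 7 per Ctrl mouse, so its low values carry a large counting error.

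In Case kidneys the family ranged from below the Ctrl mean to 233 times that mean, depending on the mouse. Case 3 had the highest value of all 17 mice for all 10 genes, and Case 1 and Case 5 took the next ranks for all 10. Case 2 stood above every Ctrl mouse for 9 of the genes at a median of 2.27 times the Ctrl mean, Case 4 for 3 and Case 6 for 1. The median over the 10 genes of the level relative to the Ctrl mean was 38.2 in Case 3, 20.2 in Case 5, 8.83 in Case 1, 1.08 in Case 4 and 0.624 in Case 6.

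**Figure D1:**
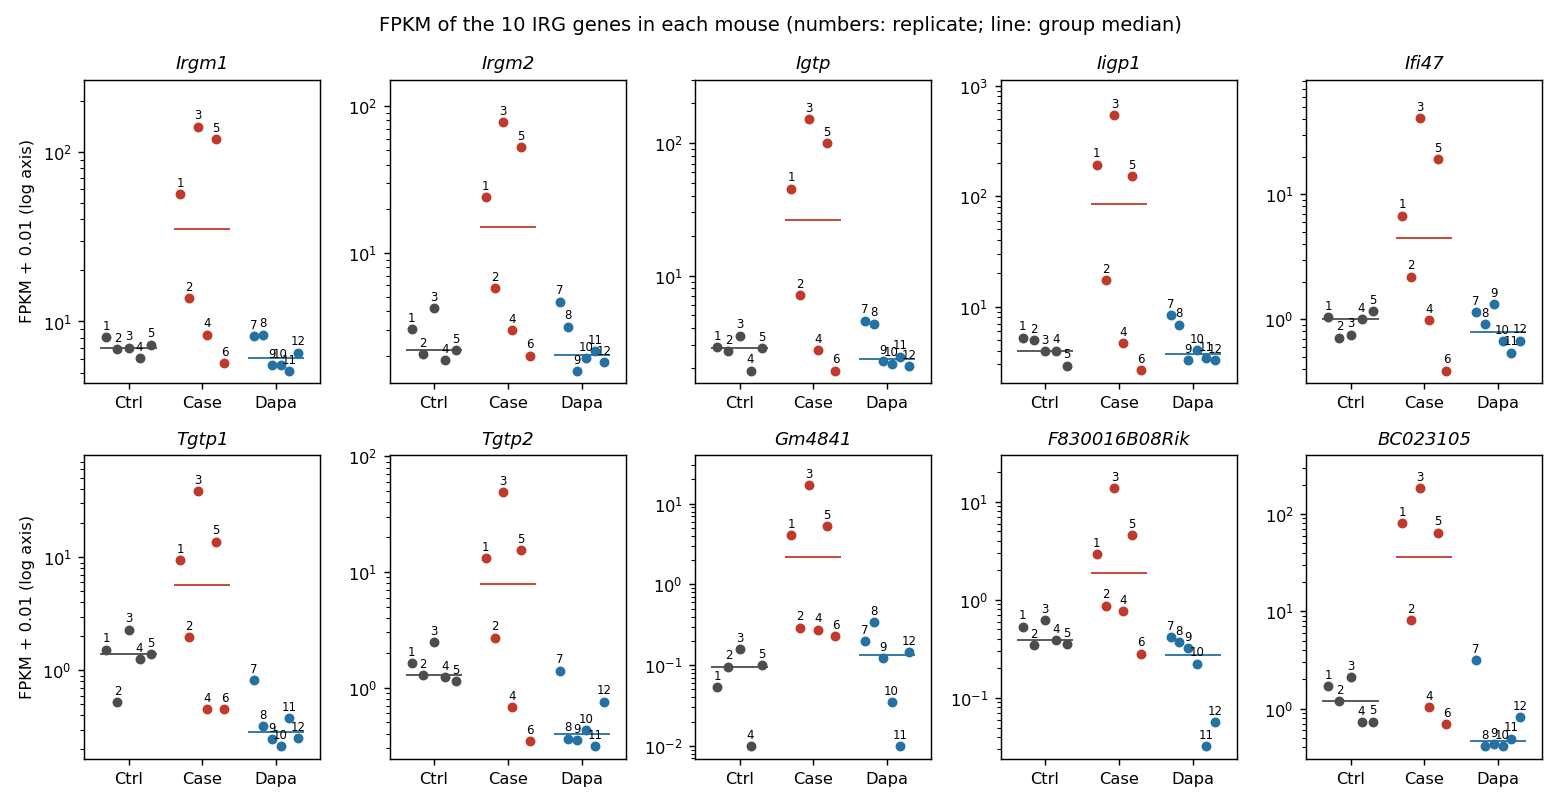
FPKM plus 0.01 on a log axis for each of the 10 IRG genes, with 1 point per mouse, its replicate number beside it and a line at the group median (Ctrl n = 5, Case n = 6, Dapa n = 6). In each panel Case 3 is the highest point and Case 1 and Case 5 follow, while the Case 4, Case 6 and Dapa points lie among, near or below the Ctrl points except for Gm4841, where all 6 Case mice and Dapa 7 and 8 lie above every Ctrl mouse.

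Among the regulators, Irgm1, whose loss in mice harms both defence and autophagy, measured 8.09, 6.84, 7.01, 6.07 and 7.30 FPKM in Ctrl 1 to 5. In Case mice it ran from 5.66 to 141 FPKM with a median of 35.1, and in Dapa mice from 5.10 to 8.37 with a median of 6.05. In 5 Case mice it exceeded every Ctrl mouse and Case 6 lay below them all, so the groups overlapped. Igtp, which sits on the endoplasmic reticulum and lipid droplets, measured 2.89, 2.68, 3.51, 1.91 and 2.83 FPKM in Ctrl 1 to 5, from 1.91 to 151 around a median of 26.2 in Case, and from 2.05 to 4.57 around a median of 2.34 in Dapa. Irgm2, found mainly at the Golgi, measured 3.01, 2.04, 4.20, 1.84 and 2.17 FPKM in Ctrl 1 to 5, from 1.99 to 77.7 around a median of 14.9 in Case, and from 1.56 to 4.65 around a median of 2.02 in Dapa. For both genes 4 Case mice stood above the Ctrl mice and the other 2 within their range.

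Iigp1, the effector whose polymers coat the vacuole of Toxoplasma, had the highest group mean and median of the family in Case mice, although Irgm1 was above it in Case 4, Case 6 and 5 of 6 Dapa mice. It measured 5.23, 4.94, 3.97, 3.98 and 2.91 FPKM in Ctrl 1 to 5. In Case mice 1 to 6 it measured 193, 17.5, 541, 4.66, 151 and 2.63 FPKM. In Dapa mice it ran from 3.25 to 8.29 FPKM, with a median of 3.72. The Case values thus spanned 206-fold, against 1.80-fold in Ctrl and 2.55-fold in Dapa mice, and the spread of log2(FPKM + 1) among Case mice (SD 2.97) was the widest of all 14582 genes tested in Case against Ctrl, whose median SD was 0.184. The same spread had rank 2 for BC023105 (2.90), rank 5 for Igtp (2.48) and rank 59 or better for all 10 genes, which restates the values by which they were chosen.

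The other effectors were lower. Ifi47 measured 1.04, 0.704, 0.745, 0.996 and 1.14 FPKM in Ctrl 1 to 5, from 0.379 to 40.8 around a median of 4.46 in Case, and from 0.532 to 1.31 around a median of 0.788 in Dapa. Tgtp1 measured 1.52, 0.512, 2.28, 1.24 and 1.38 FPKM in Ctrl 1 to 5, from 0.443 to 38.5 around a median of 5.68 in Case, and from 0.204 to 0.812 around a median of 0.276 in Dapa. Tgtp2 measured 1.61, 1.27, 2.45, 1.23 and 1.14 FPKM in Ctrl 1 to 5, from 0.336 to 49.5 around a median of 7.94 in Case, and from 0.302 to 1.40 around a median of 0.387 in Dapa. Case 4 and Case 6 lay below every Ctrl mouse for both Tgtp1 and Tgtp2, and 5 of 6 Dapa mice did so for each. Case 4 did this for no other member, whereas Case 6 was below every Ctrl mouse for 7 members, and 4 of 6 Dapa mice were so for BC023105 and for F830016B08Rik.

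Among the relatives, BC023105 measured 1.71, 1.19, 2.09, 0.723 and 0.724 FPKM in Ctrl 1 to 5, from 0.688 to 184 around a median of 36.2 in Case, and from 0.403 to 3.12 around a median of 0.450 in Dapa, although it is annotated as a pseudogene. F830016B08Rik measured 0.523, 0.333, 0.614, 0.377 and 0.346 FPKM in Ctrl 1 to 5, from 0.273 to 13.7 around a median of 1.88 in Case, and from 0.0224 to 0.408 around a median of 0.263 in Dapa. Gm4841 was the only member whose Case and Ctrl values did not overlap, a pattern shared by 4.97% of the genes tested in that direction. It measured 0.0434, 0.0859, 0.147, 0 and 0.0894 FPKM in Ctrl 1 to 5, from 0.218 to 17.05 around a median of 2.20 in Case, and from 0 to 0.328 around a median of 0.124 in Dapa. Its lowest Case value rested on 11 counts and the highest Ctrl value on 7.

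The members did not scale alike across the high mice. Case 5 exceeded Case 1 for 8 genes, by 2.10-fold in Irgm1, 2.18-fold in Irgm2, 2.21-fold in Igtp and 2.83-fold in Ifi47, but by only 1.18-fold in Tgtp2. For Iigp1 and BC023105 the order was turned, with Case 1 above Case 5 by 1.28-fold and 1.26-fold. Case 3 exceeded Case 5 by 1.18-fold in Irgm1 and 3.59-fold in Iigp1. With 1 library per mouse these ratios have no replicate error.

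**Figure D2:**
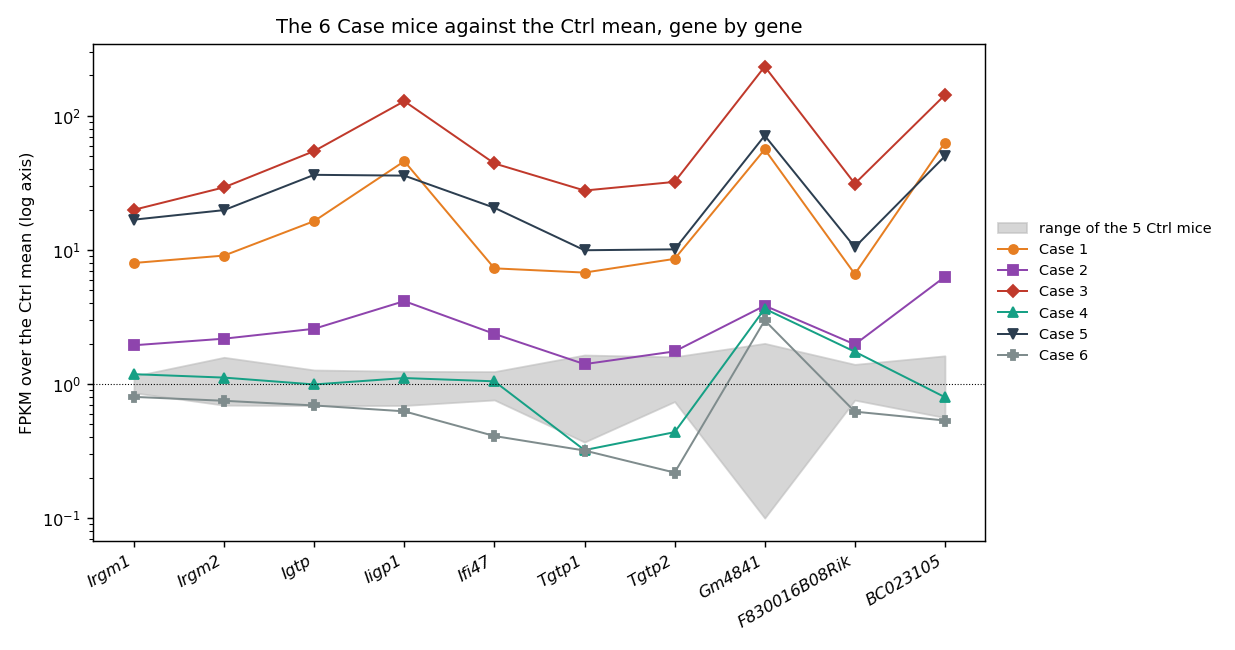
Level of each IRG gene in each of the 6 Case mice, as FPKM divided by the Ctrl mean, on a log axis; the grey band is the range of the 5 Ctrl mice, drawn down to 0.1 for Gm4841, which was at 0 in Ctrl 4. The line of Case 3 runs from 19.9 (Irgm1) to 233 (Gm4841), the lines of Case 1 and Case 5 cross at Iigp1 and BC023105, and Case 4 and Case 6 fall below the band at Tgtp1 and Tgtp2.

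The balance of effectors to regulators differed among the Case mice. The summed FPKM of Iigp1, Ifi47, Tgtp1 and Tgtp2 was 0.535 to 0.758 times that of Irgm1, Irgm2 and Igtp in the Ctrl mice and 0.473 to 0.667 times in the Dapa mice. It was 1.77 in Case 1, 0.912 in Case 2, 1.81 in Case 3, 0.480 in Case 4, 0.733 in Case 5 and 0.396 in Case 6. Case 1, 2 and 3 thus stood above every Ctrl and Dapa mouse, whereas Case 5, with the second highest sum of the family (545 FPKM), stayed within the Ctrl range. Iigp1 exceeded Irgm1 in 5 mice (Case 1, 2, 3 and 5, and by 1.01-fold Dapa 7) and was below it in the other 12, all Ctrl mice included.

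**Figure D3:**
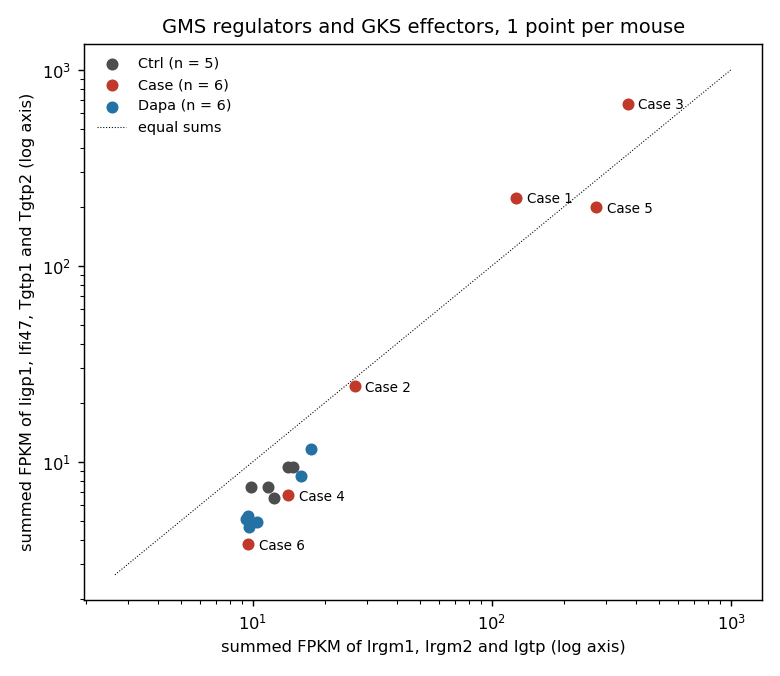
Summed FPKM of the GKS effectors Iigp1, Ifi47, Tgtp1 and Tgtp2 against that of the GMS regulators Irgm1, Irgm2 and Igtp, 1 point per mouse on log axes, with a dotted line where the sums are equal. Case 1 (222 against 126) and Case 3 (670 against 369) lie above the line, and all other mice, Case 5 (199 against 272) included, lie below it.

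Case against Ctrl asked which genes differ in the diabetic kidney. With edgeR's quasi-likelihood test and Benjamini-Hochberg adjustment over 14582 genes, differentially expressed genes (DEGs) were those with an adjusted p (q) under 0.05 and more than a 2-fold difference between group means of FPKM. All 10 members were tested, and 8 passed as higher in Case, where 2.33% of all genes did. The log2 fold changes were 5.77 ± 1.34 (SE) for Gm4841 (edgeR q = 0.0157), the largest of all genes tested, 5.32 ± 1.28 for BC023105 (q = 0.0185), 5.04 ± 1.20 for Iigp1 (q = 0.0179), 4.09 ± 1.03 for Igtp (q = 0.0224), 3.53 ± 0.987 for Ifi47 (q = 0.0342), 3.25 ± 0.862 for Irgm2 (q = 0.0277), 3.00 ± 0.836 for F830016B08Rik (q = 0.0341) and 2.90 ± 0.756 for Irgm1 (q = 0.0256). Tgtp2 (3.01 ± 0.992, q = 0.0625) and Tgtp1 (2.82 ± 0.985, q = 0.0772) missed the threshold. Gm4841 passed the filter on low counts only through the Case mice where it was high (0 to 7 counts per Ctrl mouse), so its call and its rank rest in part on that filter. DESeq2 and edgeR's exact test called all 10 members (3.13% and 3.09% of all genes), as did the quasi-likelihood test with all 3 groups in one fit (2.62% of all genes). The median over members was 3.39 and over all genes 0.03, and since the contrast was known when the members were picked, nothing is read from this.

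Case 3 carried 40.9% (Irgm1) to 62.8% (Gm4841) of the summed Case FPKM of each gene. Without Case 3, 5 of the 9 members that could still be tested passed (Gm4841 fell under the filter on low counts), where 1.68% of all genes did, and with any 1 Ctrl mouse left out 2 to 5 of 10 passed, where 1.37% to 2.78% of all genes did. Leaving out Case 3, the ratio of group means was 5.75 for Irgm1 in place of 8.11, 17.5 for Iigp1 in place of 36.0 and 27.6 for Gm4841 in place of 61.8. On log values, which weigh the low mice more, limma called 0 of 10 members with log2(FPKM + 1), where it called 1.95% of all genes, with a lowest q of 0.101. With a term for the 7 libraries with unmatched FPKM, edgeR called 4 of 10 members higher, where 1.58% of all genes were. In the 10 libraries with matching FPKM edgeR called 0 members and 0.335% of all genes, with a lowest q of 0.276, on 2 Ctrl and 5 Case mice.

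Dapa against Case asked what the drug changed within db/db mice. All 10 members were lower in Dapa, by 3.11 ± 0.689 on the log2 scale for Irgm1 at the least and by 5.87 ± 1.24 for BC023105 at the most, the lowest value of 14573 genes tested. No member was a DEG by edgeR (q 0.179 to 0.196), nor was any other gene (0% called). At an unadjusted p under 0.05 the same edgeR test gave all 10 members as lower, beside 6.66% of all genes, and DESeq2 and edgeR's exact test each called all 10, beside 0.413% and 0.343% of all genes. These counts include Gm4841, BC023105 and F830016B08Rik, whose Dapa counts alone were too low for the filter on low counts. Counts in that order were 0 to 15, 7 to 57 and 1 to 20 in Dapa. In Case they were 11 to 789, 15 to 3685 and 16 to 736. Their tests, and the rank of BC023105, thus rest in part on the Case mice where these genes were high. With limma on log2(FPKM + 1) 0 members and 0% of all genes were called. Dapa and Case values overlapped for all 10 members, as Case 4 and Case 6 lay in the range of the Dapa mice or close to it, and 0.165% of all genes had Dapa values wholly below the Case values.

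The log2 fold changes of the others were -4.93 ± 1.08 for Iigp1, -4.09 ± 0.931 for Igtp, -3.42 ± 0.789 for Irgm2, -3.70 ± 0.906 for Ifi47, -4.85 ± 1.01 for Tgtp1, -4.49 ± 1.01 for Tgtp2 and -4.01 ± 0.881 for F830016B08Rik. For Gm4841 the mean FPKM in Dapa was 0.0292 times that in Case. Without Case 3 the log2 fold changes of the 10 members ran from -5.06 (BC023105) to -2.65 (Irgm1), with -3.95 for Iigp1, -2.76 for Ifi47 and -3.47 for Tgtp2, and without Dapa 7 BC023105 was at -6.79. The spread among Case mice enters each of these errors, and Dapa against Case shares its Case mice with the contrast above.

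Dapa against Ctrl asked whether treated diabetic kidneys differ from lean controls. Only Tgtp1 and Tgtp2 were called, both lower in Dapa, by 2.04 ± 0.407 on the log2 scale for Tgtp1 (edgeR q = 0.00334) and by 1.48 ± 0.396 for Tgtp2 (edgeR q = 0.0146), 2 of 9 members tested where 2.12% of all genes were called lower. Group means were 0.362 ± 0.228 FPKM in Dapa (SD, n = 6) against 1.39 ± 0.634 in Ctrl for Tgtp1, and 0.594 ± 0.425 against 1.54 ± 0.542 for Tgtp2. As the pair shares most of its sequence, their summed counts are the safer measure and differed by -1.75 on the log2 scale (edgeR q = 0.00405). The 5 Ctrl and 6 Dapa mice overlapped in both through Dapa 7, and 4.74% of all genes had Dapa values wholly below Ctrl while 0 members did. With all 3 groups in one fit neither gene was called (lowest edgeR q over the members 0.112), where 2.04% of all genes were called lower. In the 10 libraries with matching FPKM neither was called (lowest edgeR q 0.356), where 0.673% of all genes were called lower.

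The other 7 members tested in Dapa against Ctrl had log2 fold changes between -1.03 ± 0.511 (F830016B08Rik, edgeR q = 0.148) and 0.09 ± 0.267 (Iigp1, edgeR q = 0.817), with -0.22 ± 0.143 for Irgm1, -0.18 ± 0.295 for Irgm2, -0.0084 ± 0.241 for Igtp, -0.19 ± 0.259 for Ifi47 and -0.57 ± 0.572 for BC023105. The estimates of Iigp1, Irgm2, Igtp, Ifi47 and BC023105 were smaller than their standard errors. Without Dapa 7, BC023105 was at -1.46 on the log2 scale and passed (edgeR q = 0.0145). Gm4841, with 0 to 15 counts per mouse in these groups, did not pass the filter on low counts and was not tested.

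**Figure D4:**
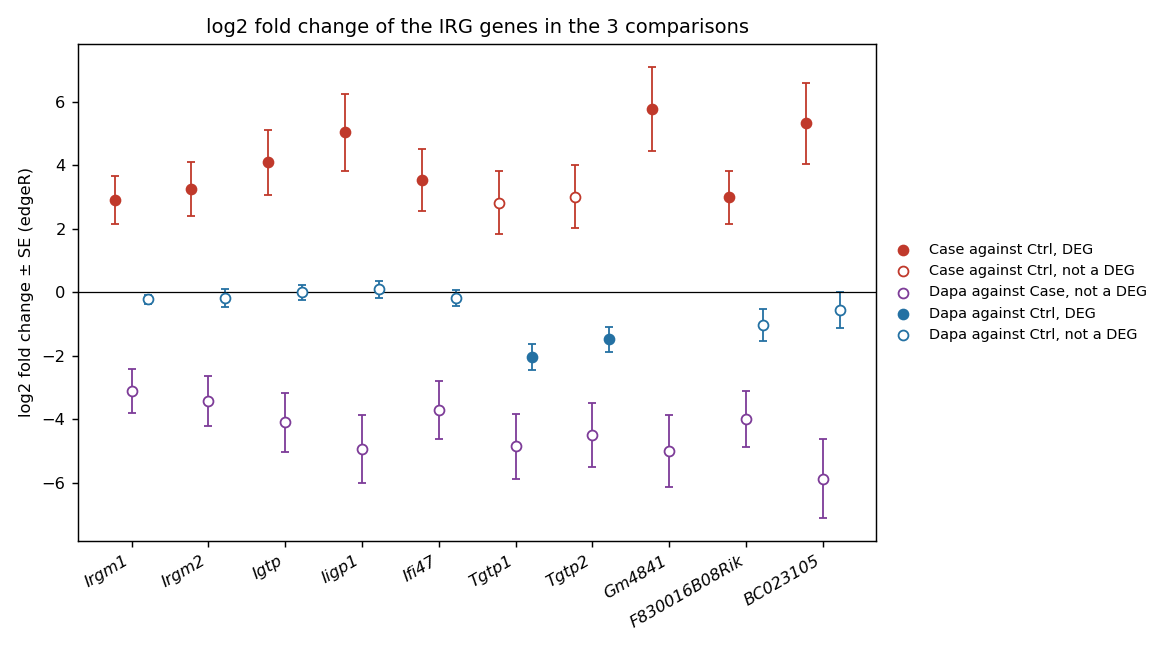
log2 fold change from edgeR with its standard error for the 10 IRG genes for Case minus Ctrl, Dapa minus Case and Dapa minus Ctrl; filled points are DEGs and Gm4841 has no point in Dapa against Ctrl. All points of Case against Ctrl lie above 0 and all of Dapa against Case below it, and in Dapa against Ctrl only Tgtp1 (-2.04) and Tgtp2 (-1.48) are filled.

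Within Dapa mice the family was low but not uniform. Dapa 7 stood above every Ctrl mouse for 6 genes and Dapa 8 for 4, Dapa 9 for 1 (Ifi47), and Dapa 10, 11 and 12 for 0. Dapa 7 measured 3.12 FPKM of BC023105 against 0.403 to 0.812 in the other Dapa mice. The remaining Dapa mice lay below every Ctrl mouse for 5 or 6 genes in Dapa 9, 10, 11 and 12 and for 3 in Dapa 8.

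Genes that carry the interferon-gamma signal were read from a list of 14, all in the table and 12 tested. Ifng itself had 6 counts in Case 3, 4 in Case 5, 1 in Case 4 and 0 in the other 14 libraries, Case 1 included, which at this depth allows up to 3 counts in each. The receptor genes Ifngr1 and Ifngr2 were not called in any comparison. In Case against Ctrl 5 of the 12 were called higher, where 2.33% of all genes were, among them the transcription factors Stat2 (1.14 ± 0.324 on the log2 scale, edgeR q = 0.0375) and Irf1 (2.00 ± 0.532, q = 0.0277), and Nlrc5 (2.50 ± 0.746, q = 0.0439) and Ciita (3.51 ± 0.894, q = 0.0237), the master regulators of MHC class I and class II genes. None of the 12 was called lower there, and 0 were called by edgeR in the other comparisons, where 7 were lower and 1 higher in Dapa than in Case at an unadjusted p under 0.05 (6.66% and 6.24% of all genes), and 3 were lower and 3 higher in Dapa than in Ctrl (20.4% and 20.7% of all genes), the latter close to the shares over all genes.

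Irf1 was high in the same Case mice as the family. Irf1 measured 1.01 to 2.41 FPKM in Ctrl, then 5.51, 4.18, 17.3, 2.62, 10.3 and 1.45 in Case 1 to 6 and 1.44 to 2.33 in Dapa. Case 3 was highest and Case 5 second, and the span was narrower than that of Iigp1.

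Beside the family, 4 guanylate-binding proteins (Gbp2, Gbp3, Gbp6 and Gbp7) were listed, a part of that family of larger interferon-induced GTPases that act with IRG effectors on vacuoles. In Case against Ctrl 4 of 4 were called higher, where 2.33% of all genes were. In Dapa against Case 0 were called by edgeR, while 4 were lower at an unadjusted p under 0.05 (6.66% of all genes). Gbp2 measured 2.26 to 3.35 FPKM in Ctrl and 135, 7.20, 176, 2.16, 45.5 and 1.45 FPKM in Case 1 to 6, so that Case 1 exceeded Case 5 as in Iigp1 and BC023105. Gbp7 measured 15.6 FPKM in Case 1 and 33.3 in Case 5, the order of the regulators. The machinery that loads IRG proteins onto vacuoles, the ATG5-ATG12-ATG16L1 complex with its LC3 and GABARAP partners and the GDI proteins, was read from a list of 12 genes. All were tested and 0 were called in any comparison by edgeR. At an unadjusted p under 0.05 edgeR gave 3 of them as lower in Case than in Ctrl (14.1% of all genes), 1 as lower in Dapa than in Case (6.66%) and 4 as lower in Dapa than in Ctrl (20.4%). The largest of these differences was -0.40 ± 0.0899 on the log2 scale (Atg12, Dapa against Ctrl, edgeR q = 0.00615). Atg5 measured 13.5 to 14.7 FPKM in Ctrl, 11.4 to 15.8 in Case and 12.3 to 14.3 in Dapa. The receptors of type I interferon, Ifnar1 and Ifnar2, were not called either.

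Of 11 further IRG relatives listed, 6 were in the table. Gm4951, a neighbour of the chromosome 18 members, was called higher in Case against Ctrl (2.53 ± 0.763 on the log2 scale, edgeR q = 0.0460) and measured 0.720 to 1.05 FPKM in Ctrl, then 4.54, 1.53, 18.3, 0.904, 6.19 and 0.510 in Case 1 to 6. Gm12185 had 1 to 26 counts in Ctrl and 77, 12, 399, 8, 185 and 7 in Case 1 to 6, but its locus overlaps Tgtp1. Irgq, a distant relative that lacks key residues of the GTPase, measured 3.99 to 6.13 FPKM in Ctrl and 3.68 to 6.29 in Case and was not called.

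The genes most like the family were sought among 11395 tested genes with a mean of at least 1 FPKM, by Pearson's r of log2(FPKM + 1) with the mean of the 10 members. Over the 17 mice the first 5 included Gbp10 (r = 0.987), Nlrc5 (0.987), Tapbpl (0.987) and Gbp6 (0.986, the gene ENSMUSG00000079362, while the Gbp6 among the 4 listed genes is ENSMUSG00000104713 under the same symbol). Over the 12 db/db mice they included Nlrc5 (0.990), Tapbpl (0.989), Gbp10 (0.989) and Gm4951 (0.989). Nlrc5 and Tapbpl, a chaperone of MHC class I loading, belong to antigen presentation, and Gbp10 and Gbp6 to the guanylate-binding proteins. Without the 2 mice farthest from the median, Case 3 and Case 5, r was 0.954 to 0.973 for the former 4 and 0.969 to 0.992 for the latter 4. By Spearman's rho, of these genes Gbp10 (0.917) stayed among the first 5 over 17 mice and 0 did over the 12. All points share the same libraries.

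Markers of other cell types were followed beside the family. The summed FPKM of 10 macrophage markers was 27.4 to 47.0 in Ctrl, 28.9 to 204 in Case and 25.6 to 62.8 in Dapa. In Case 3 it was 204 FPKM, above all other mice, and the macrophage lysozyme gene Lyz2 measured 99.3 FPKM there against 7.32 to 13.9 in Ctrl. In Case 5, with the family at 545 FPKM in sum, it was 31.4 and so within the Ctrl range, and in Case 1 it was 57.5. Of the 10 markers only Cd14 was called in Case against Ctrl (1.41 ± 0.376 on the log2 scale, edgeR q = 0.0284), where 2.33% of all genes were called higher.

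The summed level of 4 neutrophil markers was 13.4 FPKM in Case 3, 10.6 in Case 1, 2.25 in Case 5 and 6.01 in Dapa 8, against 0.0605 to 1.71 in Ctrl, and it came from S100a8 and S100a9 while Ly6g and Mpo stayed at or below 0.197 FPKM in every mouse. T and NK cell markers summed to 1.25 to 1.99 FPKM in Ctrl (median 1.69) and 0.500 to 3.35 in Case (median 0.957). In Dapa they summed to 0.926 to 3.57 (median 1.53). Case 3 and Dapa 8 were the highest of their groups, while Case 1 was at 0.629 and Case 5 at 1.78. B cell markers summed to at most 1.01 FPKM in any mouse, and endothelial markers to 26.9 to 60.4. The part of these cells in the values of the family was not tested. In whole kidney RNA, more cells of a type and more RNA per cell cannot be told apart.

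**Figure D5:**
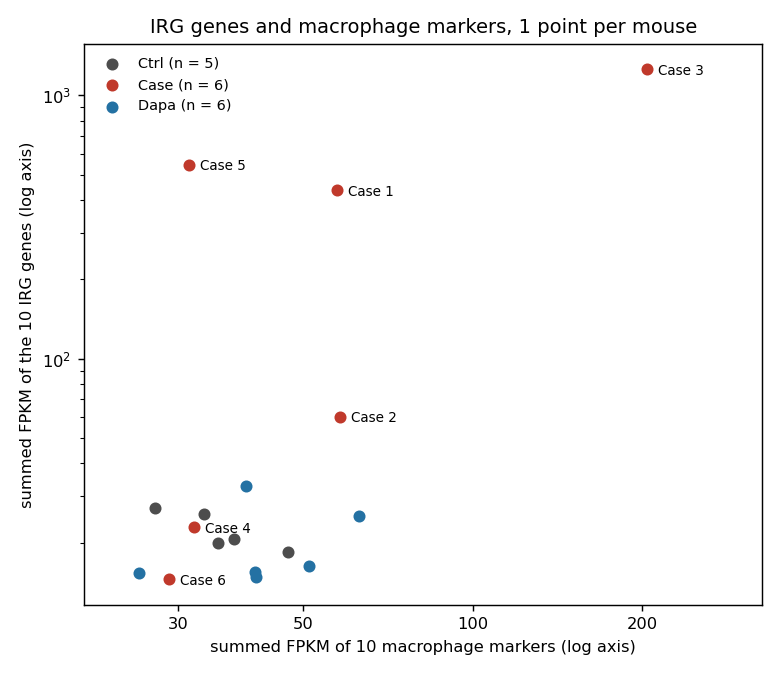
Summed FPKM of the 10 IRG genes against that of 10 macrophage markers, 1 point per mouse on log axes. Case 3 is highest on both axes (1254 and 204), Case 5 is second for the IRG genes (545) at a macrophage marker sum of 31.4, within the Ctrl range of 27.4 to 47.0, and Dapa 8 has 62.8 on the marker axis and 25.4 for the IRG genes.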

How the data were processed

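Total RNA of whole kidney was made into stranded libraries after oligo(dT) selection, per the labels. The authors aligned reads to mm10 with HISAT2 and deposited a read count per gene from Stringtie 1.3.0, with an FPKM value computed by the authors beside it. The annotation release and the strand setting are not given in the sources used here. Dividing each deposited count by the total of its library and by a constant per gene gave back the deposited FPKM within 0.0266%, without TMM scaling. That constant was the median over the libraries of the same values, so gene length itself was not checked. Of 22561 genes, 3 whose entries ran over 2 lines (Sirt1, Tgfb1 and Bmp4) were left out.

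The members and lists were chosen with earlier results of these data known. Named genes were the 10 members, listed genes that passed the call and up to 3 that did not, and the 5 most alike genes. Groups came from the labels. Counts were tested with edgeR 4.0.16 in R 4.3.3 (TMM, filterByExpr, quasi-likelihood) on pairs of groups. Alternatives used DESeq2 1.42.0, edgeR's exact test, limma 3.58.1 with pseudocounts of 1 and 0.1, other scalings and filters, all groups in one fit, Tgtp1 and Tgtp2 summed, a term for the 7 libraries with unmatched FPKM, no mitochondrial genes, a replicate block and each mouse left out. The fit on the 10 other libraries was added after the data were seen. Python 3.11.15, pandas 2.3.3, Biopython 1.88 (coding alignments) and matplotlib 3.10.9 served the rest. Gene models were GENCODE vM21 (GRCm38). Per mouse, 3 counts is the limit that a count of 0 allows, for counting error only. Nothing in the labels beyond the mouse numbers says how samples were processed, so p-values measure the spread between these mice. The values of 1 gene of the interferon-gamma list are not reported here.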

Additional observations from a re-analysis of the deposited data

Results flagged for a closer look

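In 7 of 30 groups tested (10 genes in 3 groups) the highest mouse stood apart from the others by Dixon's criterion. Chance alone meets it in about 1 in 20 groups of normally distributed values. It was applied here to FPKM, which spanned up to 268-fold among Case mice (BC023105), so that rate need not hold. The 10 genes also share the same libraries. Case 3 was that mouse in 5 of the 7, at 541 FPKM for Iigp1 (next mouse 193), 38.5 for Tgtp1 (13.8), 49.5 for Tgtp2 (15.5), 17.05 for Gm4841 (5.21) and 13.7 for F830016B08Rik (4.60). The other 2 were Dapa 7, at 0.812 FPKM for Tgtp1 (next mouse 0.368) and 3.12 FPKM for BC023105 (0.812). No Ctrl mouse was set apart.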

How the results depend on the processing

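All 257 values of the members' log2 fold changes under alternatives were above 0 in Case against Ctrl (1.21 to 6.19) and all 256 were below 0 in Dapa against Case (-6.79 to -1.45). The number of members called as DEGs moved more. In Case against Ctrl it was 8, and it was 10 with DESeq2, the exact test and all 3 groups in one fit, 0 with limma on log2(FPKM + 1), 1 with log2(FPKM + 0.1), 4 with the term for the 7 libraries, 0 in the 10 matching libraries, and 2 to 10 with each mouse left out (3, 3, 2, 5 and 2 without Ctrl 1 to 5, and 5 without Case 3). Beside these, 2.33% of all genes were called higher in the reported fit, 2.15% with log2(FPKM + 0.1), 1.58% with the term for the 7 libraries, 0.335% in the 10 matching libraries and 1.37% to 2.85% with each mouse left out. In Dapa against Case it was 0, and 10 with DESeq2 and with the exact test. In Dapa against Ctrl it was 2, and 0 with all 3 groups in one fit and in the 10 matching libraries, 1 with Tgtp1 and Tgtp2 summed, and 2 to 3 with each mouse left out (3 without Dapa 7, where BC023105 also passed). Beside these, 2.12% of all genes were called lower in the reported fit and with the pair summed. The share was 2.04% with all 3 groups in one fit and 0.673% in the 10 matching libraries. With each mouse left out it ran from 1.84% to 2.58%. The causes were not tested, though fewer mice enter the smaller fits.

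With the replicate block 4 members and 0.946% of all genes were called higher in Case against Ctrl. Same-numbered mice did not deviate together (r -0.068 to -0.042), so the numbers do not pair them.

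Signs turned only in Dapa against Ctrl. Igtp was at 0.031 with upper quartile scaling, 0.043 and 0.046 with limma (pseudocounts 1 and 0.1), 0.013 with at least 10 counts in every sample and 0.0011 without mitochondrial genes. In the 10 matching libraries Irgm2 was at 0.48, Igtp at 0.35, Ifi47 at 0.21 and BC023105 at 0.35. With each mouse left out Igtp ran from -0.16 to 0.11, Irgm2 from -0.44 to 0.057 and Iigp1 from -0.12 to 0.21. Gm4841 and F830016B08Rik rest on few counts outside the high mice.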

Other observations

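The relatives 9930111J21Rik1 and 9930111J21Rik2 did not follow the family, and are named here after their values were seen. 9930111J21Rik2 had 41, 0, 61, 0 and 58 counts in Ctrl 1 to 5 and 0 to 2 counts in each of the 12 db/db mice. 9930111J21Rik1 had 24, 25, 16, 56 and 16 counts in Ctrl 1 to 5 and 25 to 65 in the db/db mice. In the Ctrl mice the highest counts of the former stood beside the lowest of the latter, and 56.1% of the 50-base stretches of 9930111J21Rik2 also occur in 9930111J21Rik1, so the division of reads between them is uncertain.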
